A study of Mus musculus with 6 samples.

Results

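The transcripts described here are the named antisense RNAs of 6 tumours, together with the genes on whose opposite strand they lie. Members were chosen by symbol and level: symbols ending in -AS and a digit, and averaging 0.5 FPKM or more over the 6 tumours. FPKM is the number of fragments per kilobase of transcript, scaled to the fragments mapped in each library. Of 149 such symbols among the 23284 in the table, 73 reached this level and 25 were listed at 0 in every tumour. The rule used the mean level over all tumours, so the levels themselves are given as a description. For 68 of the 73 the table also holds the sense gene, taken as the symbol before -AS, and in 63 of these pairs the sense gene reached 0.5 FPKM as well.

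The tumours grew under the skin of athymic nude mice, which lack mature T cells, from injected STS26T cells. STS26T is a human line from a malignant peripheral nerve sheath tumour, a sarcoma of the nerve sheath, and is a single line, so the tumours do not sample different patients. Treatment began after 1 week, at a tumour size of about 100 mm3, and lasted 3 weeks at 10 mg/kg, given 2 times a week into the peritoneum. The mice of the 3 anti-ENG tumours received TRC105, an antibody to human endoglin, with M1043, an antibody to mouse endoglin. Those of the 3 control tumours received IgG. Endoglin binds TGF-beta family ligands alongside their signalling receptors. The codes of IgG control 2 and 3 share a number and differ only in the letters L and R, as do those of anti-ENG 1 and 2. Whether the tumours of such a pair grew in 1 animal is not stated in the labels. P-values therefore measure only the spread between these samples. The main fit and the permutation test treat all tumours as separate samples. Values below are given in the order of replicates 1, 2 and 3 of each group.

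An antisense transcript is copied from the strand opposite to a gene, and its name joins the symbol of that gene to the suffix AS. Some start at the promoter of the gene and run away from it, and others overlap its exons. Known members act on the chromatin of the locus, compete with transcription of the sense gene, pair with its RNA or have roles that have nothing to do with it, and for many no function is known. Where the strands overlap, reads can be assigned to the right strand only if the library marks strand and the counting uses it. The labels' protocols name a pair of kits, TruSeq and NEBNext Ultra II Directional, without saying which was used for which tumour, and none of the sources used here says whether the counting used strand. Reads of an overlapping pair therefore cannot be told apart, and a level given for either symbol can hold reads of the other.

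Total depth is unknown, because the table gives FPKM and no counts. The worth of a single fragment, read from genes at 0.05 FPKM or less, put the depth of the other tumours at 1.10 to 1.46 times that of IgG control 1, highest in anti-ENG 1, and the FPKM values summed to between 410786 and 475146 per tumour. The members took 0.159 to 0.243% of that sum. The organism label is mouse and the symbols are human, so RNA of the host enters only where it aligns to the human genome. Of the nerve sheath markers, PMP22, SOX9 and TWIST1 were at 19.1 FPKM or more in every tumour, while SOX10, S100B and ERBB3 did not exceed 0.326 FPKM. Among markers of other cells, the endothelial genes summed to 2.44 to 4.69 FPKM, and among leukocyte genes CD3E was listed at 0, PTPRC, CD14 and CD79A did not exceed 1.13 FPKM and CD68 was at 58.4 FPKM or more. The 4 fibroblast genes (DCN, LUM, PDGFRA and FAP) summed to 69.996 to 138 FPKM under IgG control and 41.9 to 64.2 FPKM under anti-ENG. The groups overlapped for each of these genes taken singly. ENG, which encodes the target of the antibodies, was at 40.998, 23.9 and 22.1 FPKM under IgG control and 15.5, 29.5 and 26.7 FPKM under anti-ENG, and the groups overlapped. In bulk tumours, fewer cells of a type and less RNA per cell cannot be told apart.

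Most members were low. Their mean levels ran from 0.554 to 259 FPKM with a median of 1.85 FPKM, against a median of 10.5 FPKM over the 13608 genes of at least 0.5 FPKM. A mean under 1 FPKM was found for 17 members, 1 to 5 FPKM for 43 and at least 10 FPKM for 10. All 73 members were above 0 in every tumour. The highest 3, C17orf76-AS1, ZNFX1-AS1 and PCNA-AS1, held 64.8% of the summed mean level of all members. Between the highest and the lowest tumour a member differed by a median ratio of 2.24, compared with 1.57 over all tested genes and 2.19 over those of 0.5 to 5 FPKM.

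C17orf76-AS1 had the highest mean level, at 193, 265 and 229 FPKM in the IgG control tumours and 374, 224 and 271 FPKM in the anti-ENG tumours. ZNFX1-AS1, also known as ZFAS1, followed at 135, 145 and 155 FPKM in the IgG control tumours and 286, 164 and 167 FPKM in the anti-ENG tumours. Both are spliced RNAs whose introns hold small nucleolar RNAs (snoRNAs), the guides of ribosomal RNA modification, and both were highest in anti-ENG 1. The fold changes between the groups were 0.32 (SE 0.21) for C17orf76-AS1 and 0.46 (SE 0.22) for ZNFX1-AS1 on the log2(FPKM + 1) scale, and were 0.12 and 0.19 without anti-ENG 1. EPB41L4A-AS1, a further snoRNA host, was at 13.5, 14.8 and 16.5 FPKM under IgG control and 22.6, 14.1 and 15.3 FPKM under anti-ENG. Its fold change of 0.18 (SE 0.18) came to -0.02 without anti-ENG 1. The other snoRNA host genes were looked at after this was seen: over 12 genes with SNHG symbols and GAS5 the summed level was 979 to 1154 FPKM under IgG control and 992 to 1885 FPKM under anti-ENG, with the 1885 FPKM in anti-ENG 1. SNHG5 alone was at 287, 286 and 294 FPKM under IgG control and 765, 305 and 369 FPKM under anti-ENG, and weighs heavily in that sum. Taken singly, 8 of these genes had fold changes above 0 and 5 below. Anti-ENG 1 was not the highest tumour for SNHG3, SNHG9, SNHG10 and SNHG12. Anti-ENG 1 also had the highest relative depth (1.46) and the lowest fibroblast sum (41.9 FPKM), and the part of these in its levels was not tested. Over all members, anti-ENG 1 was the highest tumour for 16 and the lowest for 18, or 46.6% together, against 29.4% highest and 25.6% lowest among all tested genes.

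Of the next members by level, HIF1A-AS2 was at 60.4, 44.4 and 39.7 FPKM in the IgG control tumours and 44.3, 50.1 and 49.9 FPKM in the anti-ENG tumours. It overlaps the end of HIF1A, which encodes the oxygen-regulated subunit of hypoxia-inducible factor. HNRNPU-AS1, opposite the gene of a nuclear RNA-binding scaffold protein, was at 29.03, 35.7 and 44.4 FPKM under IgG control and 36.6, 32.7 and 43.1 FPKM under anti-ENG. FGD5-AS1 was at 26.4, 38.6 and 30.7 FPKM under IgG control and 41.2, 33.2 and 34.7 FPKM under anti-ENG. In these 3 members the groups overlapped, and their fold changes were 0.02 (SE 0.17), 0.05 (SE 0.18) and 0.19 (SE 0.16). FBXO22-AS1, opposite the gene of an F-box protein, was at 20.3, 22.4 and 19.5 FPKM under IgG control and 26.6, 18.7 and 27.1 FPKM under anti-ENG, again with overlapping groups. At the lower edge of the rule, CFLAR-AS1 had a mean of 0.554 FPKM, SPAG5-AS1 0.577 FPKM and RBM26-AS1 0.581 FPKM. Among those just outside it were C1QTNF9B-AS1 with 0.480 FPKM and GRIK1-AS2 with 0.440 FPKM. Means of at least 0.5 FPKM in both groups were found for 70 members, and CFLAR-AS1, RBM26-AS1 and SPAG5-AS1 reached it in 1 group only.

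**Figure D1:**
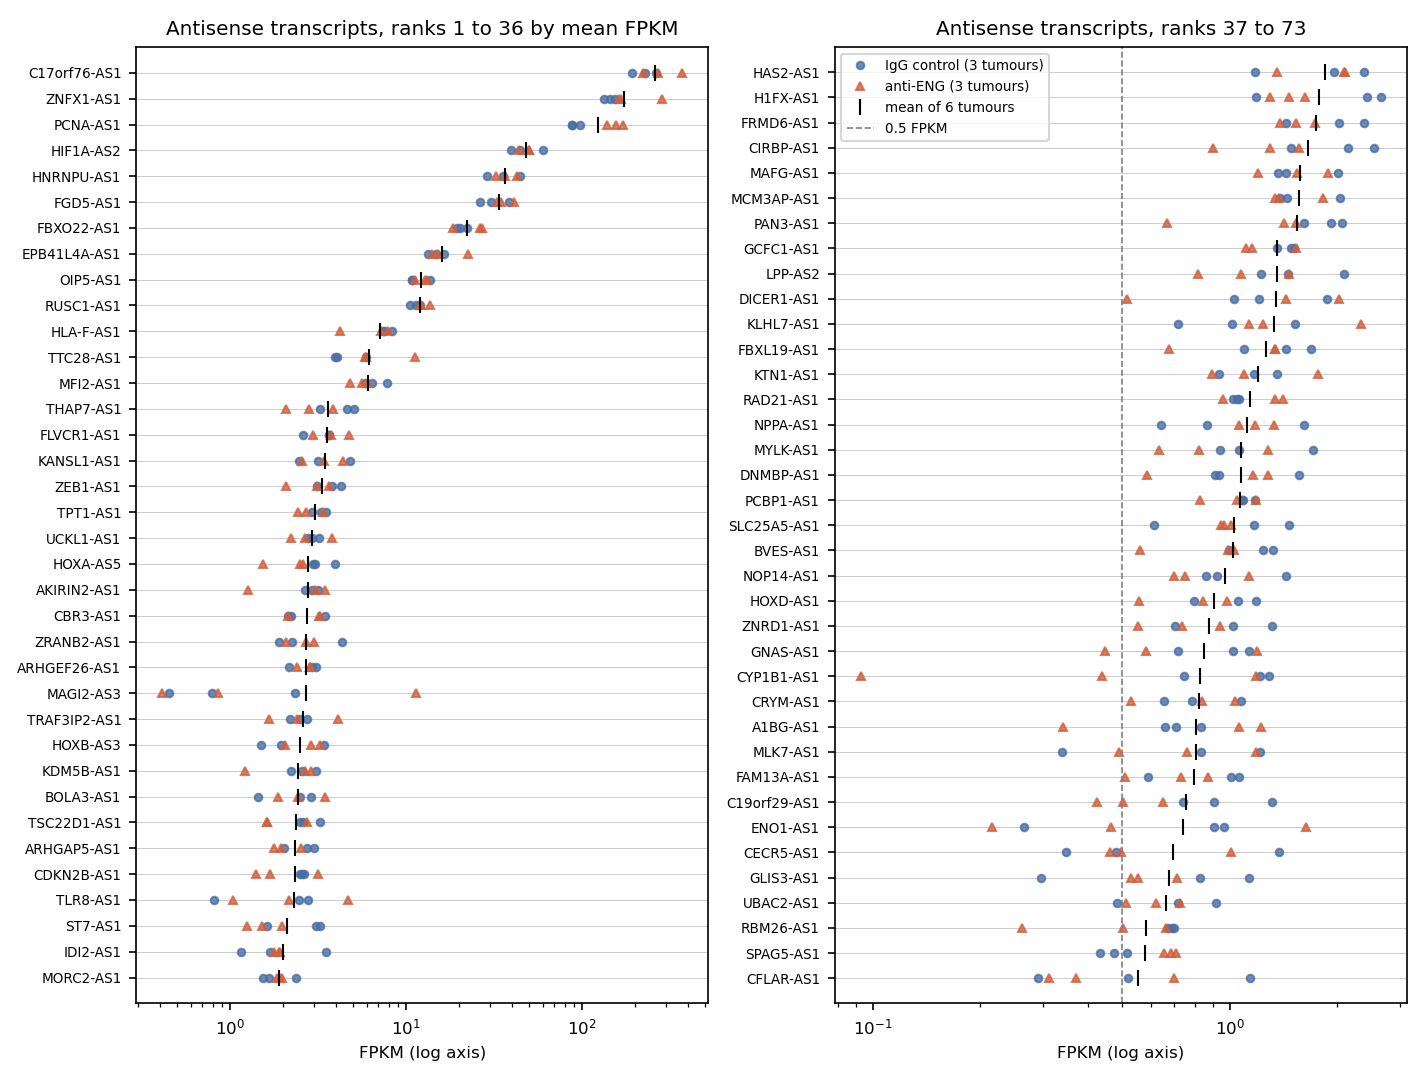
FPKM (log axis) of each of the 73 antisense transcripts in the 3 IgG control tumours (circles) and the 3 anti-ENG tumours (triangles), ordered by the mean of the 6 tumours (vertical ticks); the dashed line marks the 0.5 FPKM of the rule. Of the 10 members of at least 10 FPKM, PCNA-AS1, ZNFX1-AS1 and RUSC1-AS1 have groups that do not overlap, RUSC1-AS1 by a narrow margin. Among all tested genes the groups do not overlap for 16.8%, and among those of at least 5 FPKM for 19%.

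Since FPKM is per length, the levels of an antisense transcript and its sense gene can be set side by side as the antisense share of their sum. Over the 63 pairs with a sense gene of at least 0.5 FPKM the median share was 10.5%. It was under 5% in 20 pairs, 5 to 20% in 29 and 20% or more in 14. The lowest shares belonged to abundant sense genes. ENO1-AS1, at 0.265, 0.901 and 0.967 FPKM under IgG control and 1.64, 0.216 and 0.465 FPKM under anti-ENG, was 0.081% of the pair with ENO1, a glycolytic enzyme at a mean of 899.8 FPKM. TPT1-AS1, at 2.95, 3.29 and 3.53 FPKM under IgG control and 2.44, 2.71 and 3.40 FPKM under anti-ENG, was 0.152% of the pair with TPT1, the translationally controlled tumour protein, at a mean of 2029.9 FPKM.

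In 12 of the 68 pairs the antisense transcript had the higher mean, and in 5 of them the sense gene was below 0.5 FPKM. FGD5-AS1, at a mean of 34.1 FPKM, lies opposite FGD5, an exchange factor for a small GTPase known from endothelium, which was listed at 0 in 4 tumours and at 0.0341 and 0.0163 FPKM in IgG control 2 and anti-ENG 2. TLR8-AS1 was at 0.819, 2.47 and 2.78 FPKM under IgG control and 4.69, 2.18 and 1.04 FPKM under anti-ENG, while TLR8, an innate receptor for single-stranded RNA, was listed at 0 in all tumours but IgG control 3, with 0.0511 FPKM. TTC28-AS1 was at 3.96, 4.08 and 5.95 FPKM under IgG control and 11.2, 5.84 and 5.94 FPKM under anti-ENG, and TTC28 between 0.0352 and 0.0735 FPKM. These 3 antisense transcripts were thus present where the gene that names them was listed at or near 0. CRYM-AS1 (0.819 FPKM, share 85.6%) and NPPA-AS1 (1.12 FPKM, share 78.1%) also exceeded sense genes of under 0.5 FPKM, namely CRYM, a thyroid hormone binding protein, and NPPA, the precursor of atrial natriuretic peptide.

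In 7 pairs the means over the 6 tumours of both transcripts reached 0.5 FPKM and the antisense mean was still the higher. Of their sense genes, ARHGEF26 had a mean of 0.482 FPKM under IgG control and 0.931 FPKM under anti-ENG, so it reached the limit in 1 group only. EPB41L4A-AS1 made up 84.7% of its pair (81.9 to 86.7% over the tumours) and ZNFX1-AS1 83.5% (74.8 to 92.9%). ARHGEF26-AS1, opposite the gene of a GTPase exchange factor, made up 79.8% (66.3 to 91.8%) and MAGI2-AS3, opposite the gene of a junctional scaffold protein, 66.5% (46.96 to 91.7%). FBXO22-AS1 made up 62.4% (57.4 to 67.1%) and OIP5-AS1 57.5% (46.4 to 65.4%). The seventh was PCNA-AS1, with a share that had an SD of 1.72 percentage points over the 6 tumours. Its lowest share was 48.0% and its highest 52.9%, so the transcripts of this pair were listed at nearly the same level in each tumour.

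**Figure D2:**
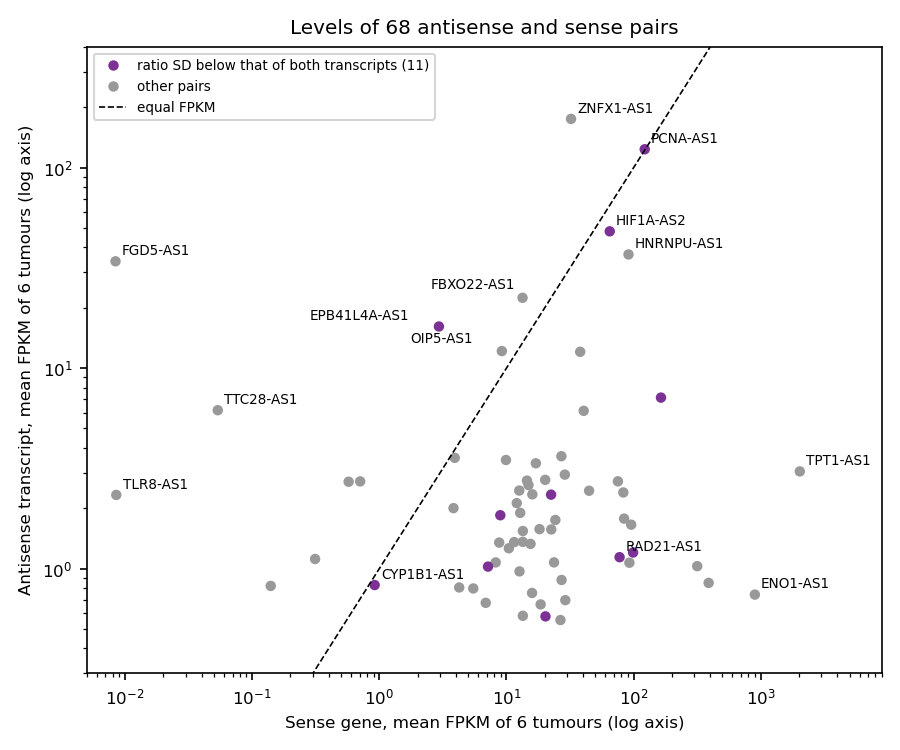
Mean FPKM over 6 tumours of the antisense transcript (vertical, log axis) against that of its sense gene (horizontal, log axis) for 68 pairs; the dashed line marks equal levels, and purple points are the 11 pairs whose antisense to sense ratio varied less than either transcript. PCNA-AS1 sits on the line at about 124 FPKM, while FGD5-AS1, TLR8-AS1 and TTC28-AS1 lie far to its left, with sense genes near 0.

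PCNA encodes the sliding clamp that holds DNA polymerases on the template at the replication fork, and PCNA-AS1 is transcribed from the same locus. PCNA-AS1 stood out in earlier results on these data, so its values are a description. It was at 88.4, 87.9 and 98.2 FPKM in the IgG control tumours and 171, 139.7 and 156 FPKM in the anti-ENG tumours. PCNA was at 89.05, 93.2 and 106 FPKM in the IgG control tumours and 170.1, 136 and 139 FPKM in the anti-ENG tumours. For both, every anti-ENG tumour lay above every IgG control tumour, and anti-ENG 1 was the highest. The group levels were 91.5 ± 5.82 FPKM in the IgG control group and 156 ± 15.5 FPKM in the anti-ENG group (SD, n = 3 each) for PCNA-AS1, and 96.2 ± 9.004 FPKM in the IgG control group and 149 ± 18.7 FPKM in the anti-ENG group (SD, n = 3 each) for PCNA. The log2 fold change was 0.76 (SE 0.12) for PCNA-AS1 and 0.62 (SE 0.13) for PCNA, each with an adjusted p of 0.546 in limma, so neither passed. Leaving out any 1 tumour kept the fold change of PCNA-AS1 between 0.69 and 0.83.

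PCNA was the nearest of 13607 genes to PCNA-AS1 by the spread of their ratio. The SD over 6 tumours of log2(PCNA-AS1/PCNA), with 0.1 FPKM added to each level, was 0.099, while PCNA-AS1 itself had an SD of 0.431 and PCNA 0.369 on the same scale. The next were PIGU, a subunit of the enzyme that attaches GPI anchors (0.111), ATP5G1, a subunit of ATP synthase (0.111), and ZNF273, a zinc finger gene (0.115). The rank depended on the step between the groups. Without any 1 tumour PCNA ranked between 3 and 8, it ranked 37 with anti-ENG 1 and IgG control 1 both left out, and once the group means were taken out of every gene it ranked 252, with a ratio SD of 0.064. Coupled levels and reads shared between the symbols cannot be told apart here.

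The ratio of PCNA-AS1 to PCNA was itself slightly higher under anti-ENG. The share was 49.8, 48.6 and 48.0% in the IgG control tumours and 50.1, 50.6 and 52.9% in the anti-ENG tumours, so the groups did not overlap. The fold change of PCNA-AS1 exceeded that of PCNA by 0.14 (SE 0.058) on the log2 scale, with an exact permutation p of 0.1, the smallest that 3 tumours against 3 can give.

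Of 32 replication fork genes, a list that holds PCNA itself (with replication factor C, the replicative polymerases, RPA, the MCM and GINS helicase subunits, FEN1, LIG1 and others), 27 were higher under anti-ENG and 5 lower, with a median log2 fold change of 0.18 against 0.00 over all tested genes, of which 50.3% were above 0. With upper quartile rescaling 24 of the 32 were higher, with quantile normalization 25, and with each tumour set to the same FPKM sum 21, at a median of 0.065. The last scaling also lowers the median of all genes, so its values do not stand against the 0.00 and 50.3% above. None passed the adjusted threshold in limma, 6 had an unadjusted p under 0.05 and 10 had all anti-ENG tumours above all IgG control tumours. Without PCNA the counts were 26 higher of 31, 5 with such a p and 9 with the groups apart. Among all tested genes 8.9% had such a p and 10% had all anti-ENG tumours above. RPA3, the smallest subunit of the single-strand binding complex, was at 18.2, 20.9 and 15.3 FPKM under IgG control and 29.8, 25.3 and 23.4 FPKM under anti-ENG, with a log2 fold difference of 0.51 (SE 0.15). RFC2, a clamp loader subunit, was at 29.5, 28.7 and 29.8 FPKM under IgG control and 41.1, 34.4 and 38.4 FPKM under anti-ENG, with a log2 fold difference of 0.36 (SE 0.11). The fold changes of PCNA-AS1 and PCNA had higher values than both, a difference that was not tested.

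**Figure D3:**
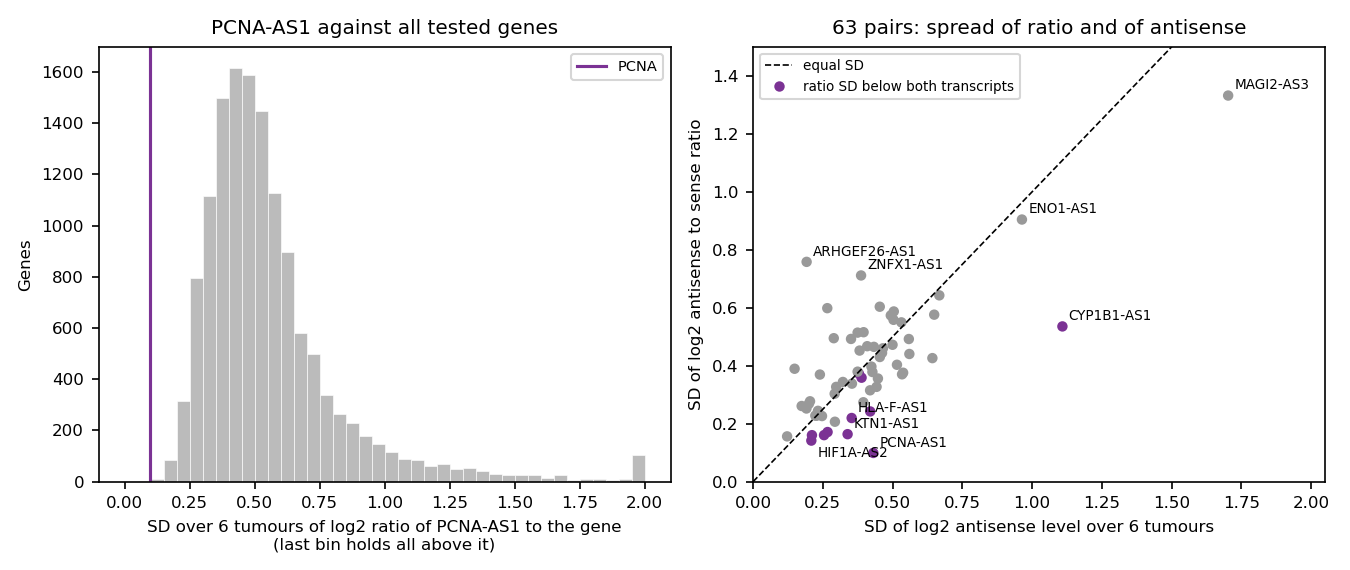
Left, number of genes by the SD over 6 tumours of the log2 ratio of PCNA-AS1 to each of 13607 genes, with PCNA marked at 0.099 in front of all others; right, for 63 pairs, the SD of the log2 antisense to sense ratio against the SD of the log2 antisense level, with the line of equal SD and the 11 pairs whose ratio varied less than both transcripts in purple. PCNA-AS1 has the lowest ratio SD and MAGI2-AS3 the highest, at 1.33.

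Most pairs did not meet the rule for coupling used here. A pair was counted as coupled when the SD of its log2 ratio over the 6 tumours was below the SD of both levels. The antisense level had the larger SD in 52 of 63 pairs (median 0.389, against 0.216 for the sense level). In those the ratio had to vary less than the steadier sense gene. The rule held for 11 of 63 pairs, or 17.5%. It held for 4.61% when each antisense transcript was set against every tested gene other than its own. The 11 were the pairs of BVES-AS1, CDKN2B-AS1, CYP1B1-AS1, EPB41L4A-AS1, HAS2-AS1, HIF1A-AS2, HLA-F-AS1, KTN1-AS1, PCNA-AS1, RAD21-AS1 and SPAG5-AS1. Of these, SPAG5-AS1 had a mean of at least 0.5 FPKM only under anti-ENG. With any 1 tumour left out, 2 of the 11, PCNA-AS1 and CYP1B1-AS1, were counted each time. Leaving out anti-ENG 1 ended the count for 6 (EPB41L4A-AS1, HAS2-AS1, HLA-F-AS1, KTN1-AS1, RAD21-AS1 and SPAG5-AS1), leaving out anti-ENG 2 for BVES-AS1 and CDKN2B-AS1, leaving out IgG control 1 for BVES-AS1 and HIF1A-AS2, and leaving out IgG control 3 for HAS2-AS1. With 1 FPKM added in place of 0.1, BVES-AS1, HAS2-AS1, RAD21-AS1 and SPAG5-AS1 were not counted. Over all pairs, without anti-ENG 1 the number was 7, beside 5.24% of other genes, and with group means removed 12, beside 5.31%. The sense gene was among the nearest 5% of all genes to its antisense transcript in 14 of 63 pairs, or 22.2%, and in the median pair 19.4% of genes were nearer than the sense gene. The 14 became 9 without anti-ENG 3, 10 without IgG control 1, anti-ENG 1 or anti-ENG 2, and 8 with IgG control 1 and anti-ENG 1 both left out. The levels of a tumour share its library and scaling, so these counts are a description with no test.

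The smallest ratio SDs after that of PCNA-AS1 were 0.142 for HIF1A-AS2, 0.156 for RUSC1-AS1 and 0.161 for RAD21-AS1. HIF1A was at 94.03, 58.5 and 57.2 FPKM under IgG control and 56.95, 63.9 and 58.9 FPKM under anti-ENG, so that IgG control 1 was the highest tumour for both HIF1A and HIF1A-AS2, and without it the pair was not counted as coupled. RUSC1-AS1, at 11.5, 12.1 and 10.6 FPKM under IgG control and 12.1, 12.2 and 13.8 FPKM under anti-ENG, and RUSC1, at 39.1, 38.6 and 38.2 FPKM under IgG control and 31.6, 37.3 and 43.4 FPKM under anti-ENG, which encodes an adaptor protein, had SDs of 0.122 and 0.148 on the log2 scale, and their ratio varied more than either. RAD21, the cohesin subunit that closes the ring around chromosomes, was at 70.7, 73.9 and 68.7 FPKM under IgG control and 102, 76.1 and 74.7 FPKM under anti-ENG. RAD21-AS1 was at 1.06, 1.05 and 1.02 FPKM under IgG control and 1.41, 0.958 and 1.34 FPKM under anti-ENG, and anti-ENG 1 was the highest tumour for both. This antisense transcript made up only 1.45% of its pair at levels close to 1 FPKM.

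Further coupled pairs, picked after their values were seen, differed in which tumours were high. CDKN2B-AS1, also called ANRIL, is known for its part in Polycomb silencing of the INK4 locus, where CDKN2B encodes an inhibitor of cyclin-dependent kinases. It was at 2.59, 2.65 and 2.50 FPKM under IgG control and 1.42, 3.17 and 1.70 FPKM under anti-ENG, and CDKN2B at 19.1, 25.95 and 23.3 FPKM under IgG control and 17.8, 29.8 and 18.7 FPKM under anti-ENG, so both were highest in anti-ENG 2 and lowest in anti-ENG 1. CDKN2B ranked 291 among 13607 genes for likeness to CDKN2B-AS1, and 1156 without anti-ENG 2. CYP1B1-AS1 was at 1.21, 0.745 and 1.29 FPKM under IgG control and 0.0925, 0.440 and 1.18 FPKM under anti-ENG. CYP1B1, a cytochrome P450 induced through the aryl hydrocarbon receptor, was at 2.11, 0.780 and 1.02 FPKM under IgG control and 0.252, 0.336 and 1.01 FPKM under anti-ENG, and again both were lowest in anti-ENG 1. CYP1B1 ranked 57 among 13607 genes for likeness to its antisense transcript, at levels of 2.11 FPKM or less in every tumour. Without anti-ENG 1 it ranked 926, and with 1 FPKM added 374.

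HLA-F-AS1, at 7.47, 7.51 and 8.41 FPKM under IgG control and 4.24, 7.25 and 7.89 FPKM under anti-ENG, and HLA-F, a non-classical class I molecule at 226, 145 and 181 FPKM under IgG control and 92.3, 157 and 183 FPKM under anti-ENG, were both lowest in anti-ENG 1. HLA-F ranked 510 for likeness to HLA-F-AS1 and 7585 without that tumour. HAS2-AS1 was at 1.97, 2.37 and 1.18 FPKM under IgG control and 2.09, 2.11 and 1.36 FPKM under anti-ENG. HAS2, the hyaluronan synthase, was at 7.26, 14.1 and 4.48 FPKM under IgG control and 10.4, 12.8 and 4.65 FPKM under anti-ENG, and both transcripts had their highest value in IgG control 2 and their lowest in IgG control 3. HAS2 ranked only 2969 among 13607 genes for likeness to HAS2-AS1. Of all genes 21.8% were nearer, against 19.4% in the median pair. With 1 tumour left out the rank of HAS2 ran from 1346 (without anti-ENG 2) to 6969 (without IgG control 3), and with 1 FPKM added it was 10305. KTN1-AS1 was at 1.17, 0.930 and 1.35 FPKM under IgG control and 1.77, 0.892 and 1.10 FPKM under anti-ENG, and KTN1, the kinesin receptor kinectin, at 93.3, 89.5 and 98.2 FPKM under IgG control and 129, 85.2 and 99.6 FPKM under anti-ENG, both highest in anti-ENG 1. KTN1 ranked 47 among 13607 genes, 459 without anti-ENG 1 and 848 with IgG control 1 and anti-ENG 1 both left out. In none of these 5 pairs did the groups separate for either transcript.

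**Figure D4:**
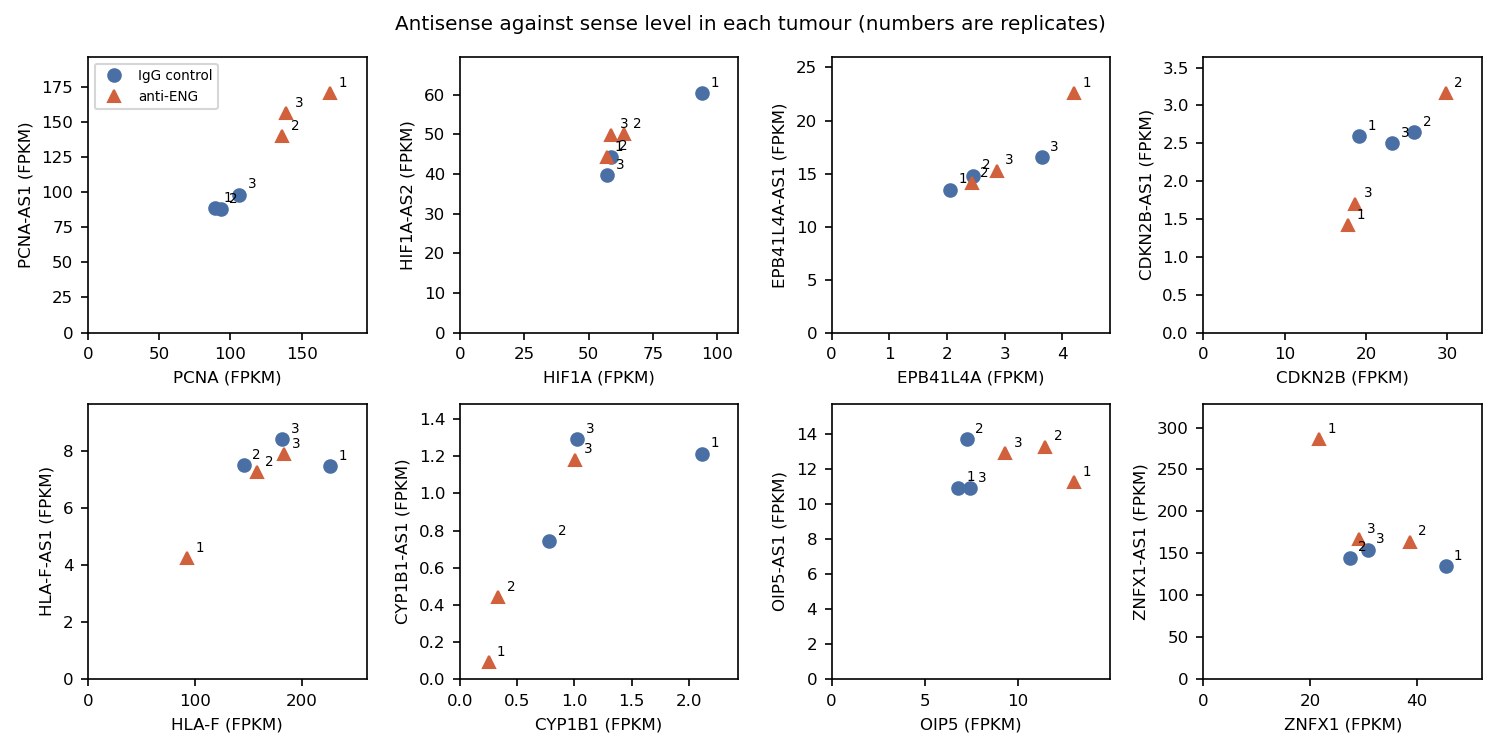
FPKM of the antisense transcript (vertical) against that of its sense gene (horizontal) in each tumour for 8 pairs, with both axes from 0 and the replicate number beside each point. The points of PCNA-AS1 rise together, as do those of HIF1A-AS2 and CDKN2B-AS1, whose coupling was lost without IgG control 1 and anti-ENG 2 respectively, while OIP5-AS1 stays between 10.9 and 13.7 FPKM as OIP5 runs from 6.79 to 13.0 FPKM, and ZNFX1-AS1 is highest where ZNFX1 is lowest.

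The largest ratio SDs were 1.33 for MAGI2-AS3, 0.905 for ENO1-AS1, 0.759 for ARHGEF26-AS1 and 0.712 for ZNFX1-AS1. MAGI2-AS3 was at 0.451, 0.791 and 2.34 FPKM under IgG control and 11.4, 0.861 and 0.413 FPKM under anti-ENG, a value of 11.4 FPKM in anti-ENG 1 with all other tumours at 2.34 FPKM or less. MAGI2 was at 0.344, 0.672 and 0.501 FPKM under IgG control and 1.04, 0.420 and 0.467 FPKM under anti-ENG, and also highest in anti-ENG 1. ARHGEF26-AS1, at 3.10, 2.17 and 2.95 FPKM under IgG control and 2.40, 2.85 and 2.87 FPKM under anti-ENG, was steady while ARHGEF26 ranged from 0.277 to 1.22 FPKM. ZNFX1, a helicase-like protein with zinc fingers, was at 45.4, 27.5 and 30.8 FPKM under IgG control and 21.7, 38.7 and 29.1 FPKM under anti-ENG, so that ZNFX1-AS1 was highest in the tumour where ZNFX1 was lowest. ENO1 was at 777, 725 and 778 FPKM under IgG control and 1227, 880.5 and 1010.4 FPKM under anti-ENG, higher in all anti-ENG tumours, whereas ENO1-AS1 spread over both groups.

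Between anti-ENG and IgG control, no antisense member passed an adjusted p of 0.05 in limma, fitted over all 13608 genes. The share of all genes that passed was 0% in each direction, and the smallest adjusted p among the members, as among all genes, was 0.546. An unadjusted p under 0.05 was found for 2 of 73 members, PCNA-AS1 higher and HOXA-AS5 lower, against 8.9% of all genes (5.27% higher and 3.63% lower). The groups did not overlap for 8 members, or 10.96%: 4 higher (PCNA-AS1, RUSC1-AS1, SPAG5-AS1 and ZNFX1-AS1) and 4 lower (C19orf29-AS1, HOXA-AS5, PAN3-AS1 and RBM26-AS1). For RUSC1-AS1 the margin was narrow, from 12.08 FPKM in IgG control 2 to 12.10 FPKM in anti-ENG 1. SPAG5-AS1 and RBM26-AS1 had a mean of at least 0.5 FPKM only in the group where each was higher. Groups were apart for 16.8% of all genes (10% higher and 6.8% lower). By level, the groups were apart for 5 of 60 members under 5 FPKM, or 8.33%, beside 11.9% of all genes of 0.5 to 5 FPKM, and for 3 of 13 members of at least 5 FPKM, or 23.1%, beside 19% of all genes of that level. All 4 fibroblast genes had fold changes below 0, but taken singly none of them separated the groups. Their summed level was at most 64.2 FPKM under anti-ENG and at least 69.996 FPKM under IgG control, so only the sum was apart. The part of this sum in the values of the members was not tested. The count of 2 members with such a p was 1 without IgG control 2, 5 without IgG control 1 and 9 without anti-ENG 2. The shares of all genes with such a p in those fits are not given here, so these counts have no background.

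Fold changes of the members ran from -0.47 to 0.76 with a median of -0.06, and 28 were above 0 and 45, or 61.6%, below. Of all tested genes 50.3% were above 0 and 49.7% below, and of genes of 0.5 to 5 FPKM 60.2% were below. The direction was not the same at all levels: 11 of the 13 members of at least 5 FPKM were above 0. No share of all genes of that level was set beside this count. Of the 60 lower ones 43, or 71.7%, were below, beside the 60.2% of all genes of 0.5 to 5 FPKM. This split depends on scaling. With quantile normalization 39 members were above 0. With each tumour set to the same FPKM sum, a choice added after seeing the data that moves the median of all genes by -0.10, 19 were above 0. Which direction held the majority of members thus changed with the scaling.

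After PCNA-AS1, the smallest p among members higher under anti-ENG belonged to TTC28-AS1, ZNFX1-AS1 and C17orf76-AS1. TTC28-AS1 had a log2 fold change of 0.58 (SE 0.26) and an adjusted p of 0.546 in limma, and 11.2 FPKM in anti-ENG 1, with the other anti-ENG tumours at 5.84 and 5.94 FPKM and IgG control 3 at 5.95 FPKM. The fold change was 0.30 without anti-ENG 1. ZNFX1-AS1 kept its groups apart, with 154.5 FPKM as the highest IgG control value and 163.9 FPKM as the lowest anti-ENG value. In all 3 the value of anti-ENG 1 was the highest of the 6 tumours.

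Among members lower under anti-ENG, HOXA-AS5 had the smallest p. It is transcribed within the HOXA cluster of homeobox genes, and its prefix names no single sense gene. It was at 3.05, 2.98 and 3.97 FPKM in the IgG control tumours and 2.51, 2.61 and 1.54 FPKM in the anti-ENG tumours, with a log2 fold difference of -0.44 (SE 0.19) with an adjusted p of 0.546 in limma. CIRBP-AS1, opposite the gene of a cold-inducible RNA-binding protein, was at 1.48, 2.15 and 2.54 FPKM under IgG control and 0.896, 1.56 and 1.30 FPKM under anti-ENG, with a log2 fold difference of -0.44 (SE 0.20). ST7-AS1 was at 1.63, 3.25 and 3.08 FPKM under IgG control and 1.97, 1.53 and 1.26 FPKM under anti-ENG, with a log2 fold difference of -0.47 (SE 0.22), and its groups overlapped, as did those of CIRBP-AS1. C19orf29-AS1, opposite a gene now called CACTIN, was at 0.742, 1.31 and 0.901 FPKM under IgG control and 0.424, 0.504 and 0.650 FPKM under anti-ENG, with a log2 fold difference of -0.37 (SE 0.18). Its highest anti-ENG value lay below its lowest IgG control value. The sense genes of the last 3 had fold changes of -0.07 (SE 0.16) for CIRBP, 0.07 (SE 0.12) for ST7 and -0.11 (SE 0.15) for C19orf29. Each of these was within 1 SE of 0. The antisense transcripts were picked for small p-values and their sense genes were not, so the sizes of the changes cannot be compared.

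The other cluster members were HOXB-AS3, at 1.96, 3.46 and 1.504 FPKM under IgG control and 2.89, 3.28 and 2.07 FPKM under anti-ENG, and HOXD-AS1, at 1.06, 1.19 and 0.793 FPKM under IgG control and 0.980, 0.557 and 0.844 FPKM under anti-ENG. The groups overlapped for both, with log2 fold changes of 0.21 (SE 0.24) and -0.17 (SE 0.18), and the difference between the clusters was not tested. The remaining members with no sense row were C17orf76-AS1 and MLK7-AS1. MLK7-AS1 was at 1.21, 0.832 and 0.340 FPKM under IgG control and 1.18, 0.759 and 0.490 FPKM under anti-ENG. ZAK, another symbol of MLK7, was found after the values were seen, at 26.8, 21.5 and 23.1 FPKM under IgG control and 26.3, 19.8 and 22.7 FPKM under anti-ENG, and likewise FAM211A, for C17orf76, at 0.177, 0.339 and 0.271 FPKM under IgG control and 0.121, 0.726 and 0.112 FPKM under anti-ENG. Neither ZAK nor FAM211A separated the groups.

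No sense gene passed in limma either. An unadjusted p under 0.05 was found for 6 of 63 sense genes, all higher under anti-ENG, against 5.27% of all genes in that direction: BOLA3, ENO1, OIP5, PCNA, SLC25A5 and SPAG5. Without IgG control 1 the count was 3, as it was without anti-ENG 1, with no share of all genes in those fits beside it. BOLA3, which helps to assemble iron-sulphur clusters in mitochondria, was at 38.03, 37.8 and 39.3 FPKM under IgG control and 56.2, 50.1 and 46.7 FPKM under anti-ENG. SLC25A5, the mitochondrial ADP/ATP carrier, was at 252, 270.2 and 313 FPKM under IgG control and 392, 333 and 340.1 FPKM under anti-ENG. SPAG5, the spindle protein astrin, was at 18.1, 17.7 and 18.4 FPKM under IgG control and 25.1, 20.99 and 21.4 FPKM under anti-ENG. In each of these 3 all anti-ENG tumours lay above all IgG control tumours. Groups did not overlap for 11 sense genes, or 17.5%, close to the 16.8% of all genes, with RAD21 higher and FBXL19, KANSL1, MCM3AP and UCKL1 lower besides the 6.

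The antisense partners of these sense genes mostly did not separate, as was true of the members in general, of which 10.96% had groups apart. BOLA3-AS1 was at 1.45, 2.89 and 2.51 FPKM under IgG control and 2.44, 1.88 and 3.50 FPKM under anti-ENG, and SLC25A5-AS1 at 0.613, 1.17 and 1.47 FPKM under IgG control and 0.945, 0.967 and 1.01 FPKM under anti-ENG. The groups overlapped for both. The pairs of PCNA-AS1 and SPAG5-AS1, 2 of 63, had groups apart for both transcripts. Taken singly, groups were apart for 10.96% of members and 17.5% of sense genes, and no background was made for the joint count. SPAG5-AS1 was at 0.433, 0.515 and 0.474 FPKM under IgG control and 0.653, 0.706 and 0.683 FPKM under anti-ENG. All were close to the lower limit of the rule, which its group mean reached only under anti-ENG. It made up 2.76% of its pair. Its ratio to SPAG5 had an SD of 0.161, and its groups overlapped.

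The fold changes of antisense and sense were both above 0 in 15 pairs, both below in 28, and opposite in 20: the antisense alone was above 0 in 6 and the sense alone in 14. The antisense minus sense difference of the log2 ratio was below 0 in 42 of 63 pairs, with a median of -0.09. These sign counts have no background of other gene pairs beside them. Most members lie at 0.5 to 5 FPKM, where 60.2% of all genes had fold changes below 0, against 49.7% of all tested genes. The part of level in these counts was not tested. The ratio kept the groups apart in 11 pairs, or 17.5%, beside 12.1% when each antisense transcript was set against every other tested gene. Each such pair has an exact permutation p of 0.1, the smallest possible, so none of the 63 differences could pass 0.05. With 1 tumour left out both the count and its background were higher. The share of pairs was 30.2% (19 pairs) beside 24.5% of other genes without IgG control 1, 27.0% (17) beside 21.3% without IgG control 2, 28.6% (18) beside 19.4% without anti-ENG 1 and 31.7% (20) beside 26.1% without anti-ENG 2. It was no higher than the background without IgG control 3, at 19.05% (12) beside 19.5%, and level with it without anti-ENG 3, at 23.8% (15) beside 23.7%.

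The ratio was higher under anti-ENG in the pairs of PCNA-AS1, HIF1A-AS2 and RUSC1-AS1. HIF1A-AS2 made up 39.1, 43.1 and 40.9% of its pair in the IgG control tumours and 43.7, 44.0 and 45.9% in the anti-ENG tumours, a difference of 0.20 (SE 0.08) in the log2 ratio. Neither HIF1A-AS2 nor HIF1A separated the groups alone. RUSC1-AS1 made up 22.7, 23.9 and 21.8% under IgG control and 27.7, 24.7 and 24.2% under anti-ENG, a difference of 0.21 (SE 0.10).

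The ratio was lower under anti-ENG in the pairs of ARHGAP5-AS1, C19orf29-AS1, CIRBP-AS1, NOP14-AS1, OIP5-AS1, PAN3-AS1, RBM26-AS1 and TPT1-AS1. OIP5-AS1, also called Cyrano, is a conserved RNA known for binding and clearing the microRNA miR-7. It was at 10.9, 13.7 and 10.9 FPKM in the IgG control tumours and 11.3, 13.3 and 12.9 FPKM in the anti-ENG tumours, with no separation of the groups. OIP5, which takes part in loading the centromeric histone CENP-A, was at 6.79, 7.24 and 7.41 FPKM in the IgG control tumours and 12.98, 11.5 and 9.31 FPKM in the anti-ENG tumours, higher in every anti-ENG tumour, with a log2 fold change of 0.58 (SE 0.14) and an adjusted p of 0.546 in limma. The difference in the log2 ratio was -0.56 (SE 0.22), and here the sense gene was the one that differed between the groups while the antisense was nearly level. The share of OIP5-AS1 went from 62.2 ± 2.96% to 52.7 ± 5.90% (SD, n = 3 each).

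In the other 7 pairs the antisense fold change was below 0, and for ARHGAP5, NOP14 and TPT1 that of the sense gene was above 0. PAN3-AS1, opposite the gene of a deadenylase subunit, was at 1.62, 1.93 and 2.07 FPKM under IgG control and 0.666, 1.54 and 1.42 FPKM under anti-ENG, and PAN3 at 13.9, 14.7 and 14.2 FPKM under IgG control and 10.6, 14.4 and 12.9 FPKM under anti-ENG, with a difference of -0.48 (SE 0.25). RBM26-AS1 was at 0.670, 0.691 and 0.698 FPKM under IgG control and 0.262, 0.663 and 0.503 FPKM under anti-ENG. Its group mean reached 0.5 FPKM only under IgG control. It differed by -0.43 (SE 0.24), which shrank to -0.12 when 1 FPKM was added in place of 0.1. TPT1-AS1 differed by -0.39 (SE 0.15), with TPT1 at 1807, 2044 and 1819 FPKM under IgG control and 2200.4, 2019.5 and 2289 FPKM under anti-ENG. C19orf29-AS1 and CIRBP-AS1 differed by -0.66 (SE 0.16) and -0.60 (SE 0.31), and ARHGAP5-AS1 and NOP14-AS1, opposite genes for a GTPase activating protein and a ribosome assembly factor, by -0.45 (SE 0.16) and -0.46 (SE 0.20). With 1 FPKM added the differences were -0.26 for C19orf29-AS1, -0.23 for PAN3-AS1 and -0.36 for CIRBP-AS1. Without anti-ENG 1 they were -0.25 for PAN3-AS1, -0.19 for RBM26-AS1, -0.31 for CIRBP-AS1, -0.37 for OIP5-AS1 and 0.13 for RUSC1-AS1, and NOP14-AS1 was at -0.28 without IgG control 1.

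**Figure D5:**
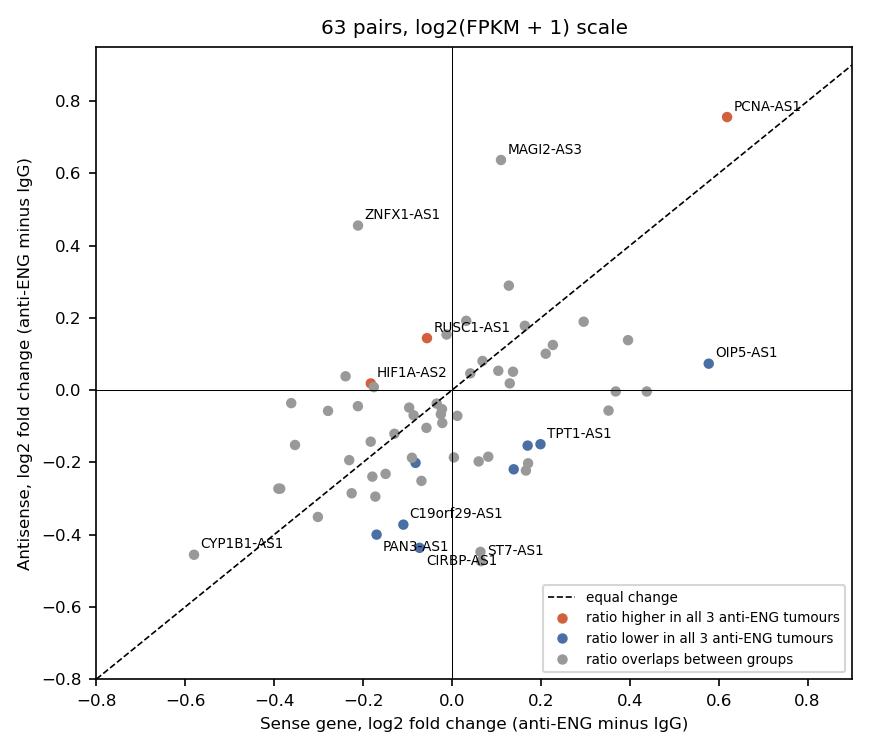
Log2 fold change (anti-ENG minus IgG control, log2(FPKM + 1) scale) of the antisense transcript against that of its sense gene for 63 pairs; the dashed line marks equal change, orange and blue points the 3 and 8 pairs whose ratio was higher or lower in all anti-ENG tumours. PCNA-AS1 lies near the dashed line at the upper right, OIP5-AS1 far to its right near a vertical value of 0, and ZNFX1-AS1 to the upper left.

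A list of genes that process or degrade noncoding and double-stranded RNA held the exosome, its nuclear adaptors, the microRNA machinery, ADAR and the cap-binding complex. As a whole it showed no common direction: of 33 tested, 15 were higher and 18 lower under anti-ENG, with a median log2 fold change of -0.02. With quantile normalization 17 were higher, and with the same FPKM sum, which also lowers the median of all genes, 13. None passed in limma, 6 had an unadjusted p under 0.05, and the groups did not overlap in 9 higher and 2 lower. Among all tested genes 8.9% had such a p, and the groups did not overlap for 10% higher and 6.8% lower. Parts of the list went opposite ways, a split seen after the values were known and not tested. The EXOSC genes were all higher under anti-ENG except EXOSC6 (-0.12). The microRNA genes DICER1, DROSHA, DGCR8 and EIF2C1 to EIF2C4 were all lower, down to -0.31 for EIF2C4. EXOSC4 was at 39.9, 40.98 and 41.8 FPKM under IgG control and 49.5, 51.8 and 50.8 FPKM under anti-ENG, and EXOSC1 at 17.5, 18.3 and 16.96 FPKM under IgG control and 31.4, 19.6 and 26.6 FPKM under anti-ENG, both of them subunits of the exosome core. RBM7, of the complex that feeds nuclear RNA to the exosome, was at 18.4, 16.98 and 17.4 FPKM under IgG control and 21.6, 21.003 and 24.1 FPKM under anti-ENG. All 3 had every anti-ENG tumour above every IgG control tumour, with log2 fold changes of 0.30 (SE 0.09), 0.51 (SE 0.17) and 0.32 (SE 0.11).

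Other named classes of transcript without a protein product were fewer. None of 12 symbols ending in -IT and a digit, for transcripts inside introns, reached 0.5 FPKM, and 6 had a mean below 0.05 FPKM. Of the symbols with -AS and no digit, BACE1-AS was at 2.08, 2.40 and 3.38 FPKM under IgG control and 3.26, 2.30 and 3.52 FPKM under anti-ENG and WT1-AS at 0.658, 0.473 and 0.369 FPKM under IgG control and 0.485, 0.247 and 0.931 FPKM under anti-ENG. Among 4 overlapping transcripts (-OT), SPANXA2-OT1 was at 6.84, 9.62 and 12.1 FPKM under IgG control and 8.70, 8.27 and 12.5 FPKM under anti-ENG, and the groups overlapped in all of these.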

How the data were processed

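RNA was measured in 6 tumours, 3 per group, with groups and replicate numbers taken from the sample titles. The deposited values are FPKM per gene symbol. The submitters' processing notes name the human build GRCh37 (hg19), Cufflinks 2.2.1, Cuffnorm, TopHat2 2.0.10, Bowtie 1.0.0, SAMtools 0.1.1.9 and FastQC 0.10.1, without their roles. How Cuffnorm scaled the libraries and how mouse reads were handled are not stated there, and both can move the levels. The mean RNA integrity number was 9.8, per the labels. FPKM are not counts, so no count test was run and total depth is unknown. The 13608 symbols with a mean of at least 0.5 FPKM were fitted on log2(FPKM + 1) by limma 3.58.1 (R 4.3.3), using a variance trend, no covariate and two-sided p-values adjusted by Benjamini-Hochberg over all 13608 (threshold 0.05). This scale understates changes of low genes. Fold changes are anti-ENG minus IgG control. Ratios of a pair were taken per tumour as log2 of antisense over sense, with 0.1 FPKM added to each, and compared by an exact two-sided permutation test over the 20 assignments of 3 of 6 tumours, whose smallest p is 0.1. Only the spread of ratios was used to describe coupling, since tumours may share animals.

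Genes were named by rule: PCNA-AS1, the 8 members of highest mean, the 4 of smallest unadjusted p in each direction, the 4 pairs each of smallest and largest ratio SD, up to 8 pairs with the antisense above the sense mean, the 3 on either side of the threshold (1 of which is not reported here) and up to 3 genes of smallest p per list. Others were picked after their values were seen. The members and lists were chosen with earlier results of these data known. Alternatives covered the pseudocount, the filter, scaling, a replicate block, tumours of 1 code number averaged and leaving out each tumour. The fit was tested on simulated data. Sequences were not used here.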

Additional observations from a re-analysis of the deposited data

How the results depend on the processing

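No member and no sense gene passed the adjusted threshold in limma under any of the alternatives run. The shared replicate numbers did not pair the tumours (correlations of same-numbered deviations -0.31, 0.18 and 0.03, with 1 of 6 tumours nearest its own number); with the replicate block 0 members passed and 2 had an unadjusted p under 0.05, as without it. The count of members with an unadjusted p under 0.05 was 1 with a pseudocount of 0.1, 1 with a filter of 1 FPKM, 5 with the same FPKM sum, 6 with IgG control 1 and anti-ENG 1 both left out, and 1 to 9 with 1 tumour left out. For sense genes the count was 3 to 8 with 1 tumour left out. The shares of all genes with such a p in these settings are not given here, so the counts have no background. With the same FPKM sum, which also lowers the median of all genes, 19 sense genes were above 0, in place of 29. Pairs with a ratio SD below both numbered 7 to 15 with 1 tumour left out. Pairs whose ratio kept the groups apart numbered 12 to 20 with 1 tumour left out and 29 with IgG control 1 and anti-ENG 1 both left out, where 37.7% of other genes did so.

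Small fold changes turned sign, and the cause was not tested. With IgG control 1 and anti-ENG 1 both left out the value was 0.20 for ZNFX1, 0.083 for HIF1A, -0.081 for HNRNPU-AS1, -0.020 for FGD5-AS1, -0.085 for EPB41L4A-AS1 and -0.14 for EPB41L4A. With the same FPKM sum it was -0.10 for HIF1A-AS2, -0.065 for HNRNPU-AS1, -0.016 for HNRNPU, -0.081 for FBXO22 and -0.047 for ST7. HIF1A-AS2 was at -0.011 with upper quartile rescaling, -0.053 with quantile normalization and -0.054 with code numbers averaged, and HNRNPU-AS1 at -0.011 with quantile normalization. With 1 tumour left out the values ran from -0.11 to 0.19 for HIF1A-AS2, -0.31 to 0.048 for HIF1A, -0.094 to 0.20 for HNRNPU-AS1, -0.017 to 0.093 for FBXO22, -0.018 to 0.30 for EPB41L4A-AS1, -0.0073 to 0.33 for EPB41L4A, -0.21 to 0.033 for CIRBP and -0.0050 to 0.13 for ST7.

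Depth limits the low members most: 17 had a mean under 1 FPKM, and the fragments behind such a value are unknown.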
